A study of Mus musculus with 8 samples.

Results

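The lysyl oxidases and the enzymes that modify collagen before it is cross-linked were examined as 1 group of 10 genes among the 15047 gene symbols with RNA-Seq values. The group holds 4 lysyl oxidases (Lox, Loxl1, Loxl2 and Loxl3), 2 lysyl hydroxylases (Plod1 and Plod2), 3 catalytic subunits of prolyl 4-hydroxylase (P4ha1, P4ha2 and P4ha3) and the procollagen C-proteinase enhancer Pcolce. The genes were taken by symbol, and all 10 were found. They were chosen by their role and with the differences between lean and obese mice in these same data known, so the values below describe them and are no independent test of their direction.

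RNA was extracted from the pancreas of 8 male mice. Lean controls were 3 C57BL/6 WT mice on a low-fat diet (LFD). Diet-induced obesity was modelled by 3 C57BL/6 WT mice on a high-fat diet (HFD), in which fat supplied 60% of the calories, and genetic obesity by 2 leptin-deficient C57BL/6J ob/ob mice on standard chow, which carry no functional leptin in any tissue. Mice entered the groups at the age of 4 weeks, and the 2 defined diets lasted 10 weeks. From the study's methods, lean and obese mice alike also carried a pancreatic transplant of mT organoids, cultures grown from mouse pancreatic tumors. The sample labels do not mention that transplant, and RNA of the graft and of the host cannot be told apart in these values. The study reports a higher engraftment rate, more growth and more invasive carcinoma of mT grafts in obese than in lean mice. Amount and stage of the graft therefore cannot be told apart from obesity here. The ob/ob mice differ from both HFD and LFD mice in diet and genotype at once, so these cannot be told apart in either comparison. The labels also name the strains of HFD and ob/ob mice differently, whereas the study's text elsewhere names the same strain for both models.

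Fibrillar collagen is made as procollagen in the endoplasmic reticulum, where prolyl 4-hydroxylase stabilizes the triple helix and lysyl hydroxylases prepare lysines for later cross-links. Outside the cell, proteinases trim the procollagen ends, helped by Pcolce, and copper-dependent lysyl oxidases convert lysines into aldehydes that link collagen and elastin molecules covalently. In pancreatic tumors, which are rich in fibrous stroma, these enzymes are known mainly as products of fibroblasts, and also of cells under low oxygen.

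The deposited values are rlog values, a log2-scaled and library-size corrected transformation of gene counts that shrinks differences of genes with few reads. They ranged from 0.466 to 24.3 over all genes and mice, with a median between 7.09 and 7.25 in each mouse. Counts were not used here, which leaves the depth of sequencing unknown and the spread between mice as the error of every value. The pancreas label was checked on 18 acinar genes, none of which was at 0, and their share of the summed linear values was 28.6% to 31.2% in LFD mice. Among HFD mice it was 30.4% (replicate 1), 22.3% (replicate 2) and 10.9% (replicate 3), and among ob/ob mice 30.7% (replicate 1) and 12.5% (replicate 2), so that 3 of the 5 obese mice stood apart from the rest. In bulk tissue, fewer cells of a type and less RNA per cell cannot be told apart.

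As a group, the 10 genes were higher in obese mice. In HFD mice 10 of 10 had a higher mean than in LFD mice, with a median log2 difference of 1.10 (range 0.25 to 1.80), and the median over all genes was 0.03. In ob/ob mice 10 of 10 were higher as well, with a median of 1.52 (range 0.42 to 2.48) against 0.04 over all genes. This value depended on which ob/ob mouse was kept, with a median of 0.77 and 8 of 10 genes higher without ob/ob replicate 2, and a median of 2.07 without ob/ob replicate 1. Both comparisons share the same 3 LFD mice. Of all genes, 52.4% had a higher mean in HFD than in LFD mice, and 53.1% in ob/ob than in LFD mice. With the mean of HFD and ob/ob as the obese value, which gives each model the same weight, the median difference of the 10 genes was 1.15.

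None of the differences passed the adjustment for all genes. With limma and Benjamini-Hochberg adjustment, the adjusted p-value was under 0.05 for 0 of the 10 genes and 0% of all genes in each of the 4 comparisons (each obesity model with LFD, the 2 models with each other, and the obese mean with LFD). At an unadjusted p-value under 0.05, in either direction, limma counted 2985, 2831, 588 and 3825 genes in these comparisons. On the higher side this held for 6 of the 10 genes in HFD mice (11.5% of all genes), 8 in ob/ob mice (11.6%), 8 in obese mice (14.5%) and 1, Pcolce, in ob/ob against HFD mice (2.28%). Since these contrasts chose the genes, nothing is read from these shares.

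The outcome of the adjustment rested on single mice. Without HFD replicate 1, whose values lay closest to those of the lean mice, 2812 genes (18.7%) passed the same threshold between HFD and LFD mice, with Lox, Loxl1, Loxl2 and Plod2 among them. Leaving out the HFD mouse most like the lean ones raises the difference of these genes by itself, so that fit is no support for them. In that fit 89 genes (0.591%), Lox included, passed between ob/ob and LFD mice. Without ob/ob replicate 1, 61 genes (0.405%) passed between ob/ob and LFD mice, with Loxl3 and Pcolce among them, on the assumption that the 1 remaining ob/ob mouse varied like the other groups. For obese against LFD mice, 3326 genes (22.1%, with 5 of the 10) passed without HFD replicate 1 and 476 (3.16%, with 4 of the 10) without ob/ob replicate 1.

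The plot of all values by mouse shows 2 patterns. For 7 genes, Lox, Loxl1, Loxl2, Loxl3, Plod1, Plod2 and P4ha3, all 5 obese mice lay above every LFD mouse, which held for 9.4% of all genes. The other 3 genes, Pcolce, P4ha1 and P4ha2, overlapped between lean and obese mice. Every HFD mouse was above every LFD mouse for the same 7 genes (12.9% of all genes), and every ob/ob mouse for these and Pcolce (24.1%). Pcolce was also the 1 gene of the 10 with every ob/ob mouse above every HFD mouse (7.92%).

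**Figure D1:**
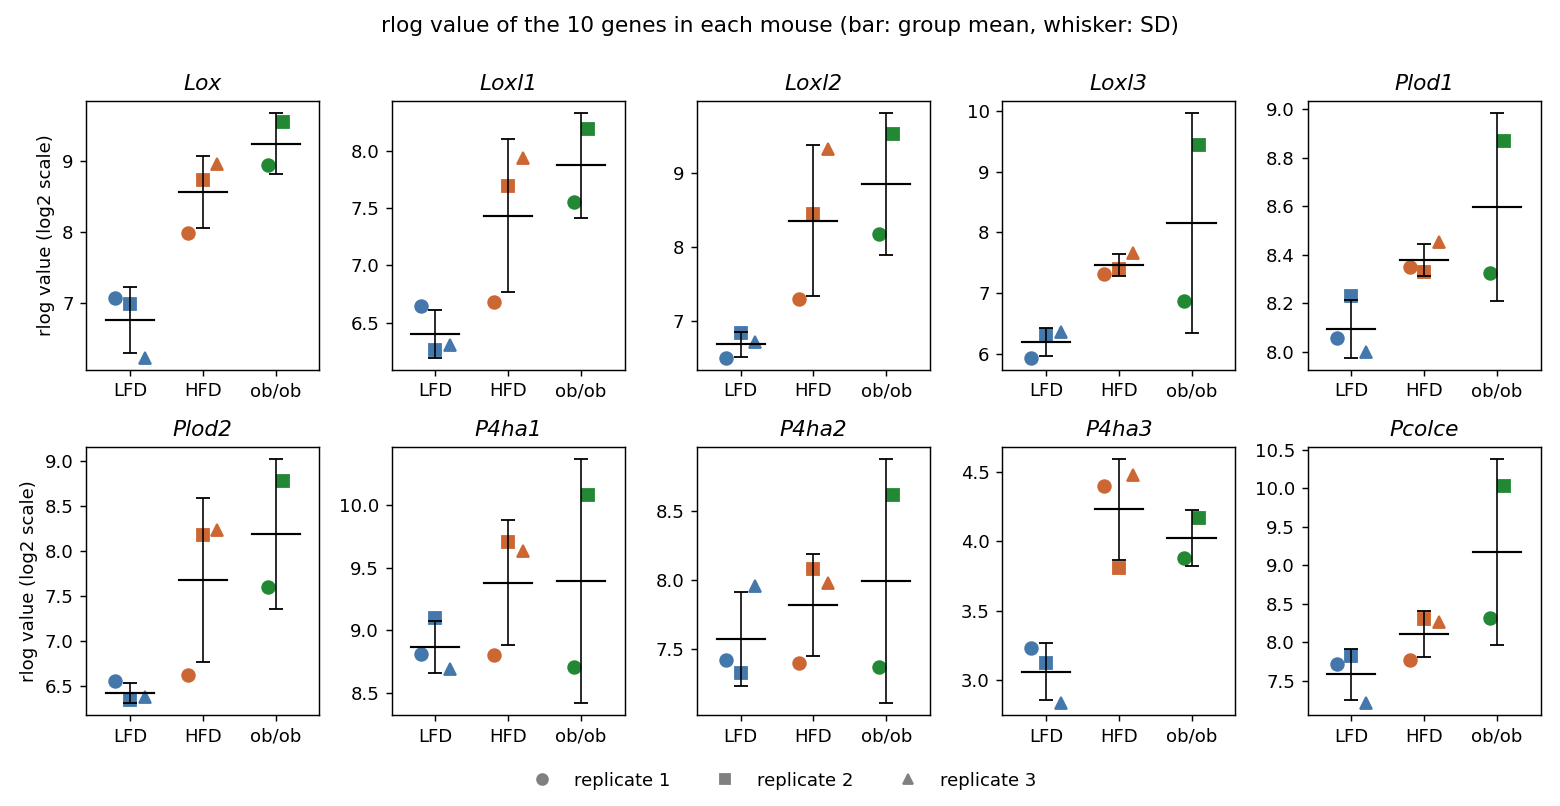
rlog value (log2 scale, y axis) of each of the 10 genes in each mouse, by group on the x axis; the bar is the group mean, the whisker the SD, and the marker shape the replicate number. All 5 obese mice lie above the LFD mice for 7 genes, with the widest gap for Lox, and the y axes differ between panels and do not start at 0.

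Lox, the founding member of the family, oxidizes lysines of both collagen and elastin, and had the largest difference of the 10 genes. Its rlog value was 7.08, 6.99 and 6.24 in LFD replicates 1 to 3. Among HFD mice it was 8.0, 8.74 and 8.97, and among ob/ob mice 8.94 and 9.55, again in the order of the replicates. The groups of lean and obese mice did not overlap, and the lowest obese mouse was 0.92 above the highest lean one, the widest gap among the 10 genes. LFD mice had a mean of 6.77 ± 0.46 (SD, n = 3), HFD mice one of 8.57 ± 0.51 (SD, n = 3) and ob/ob mice one of 9.25 ± 0.43 (SD, n = 2). Lox was thus higher by 1.80 (SE 0.33) in HFD and by 2.48 (SE 0.37) in ob/ob mice on the log2 scale, and 4.41-fold higher in the obese mean. By the size of that difference it ranked 19 of 15047 genes. The difference of 0.68 (SE 0.37) between ob/ob and HFD mice was less certain, as 1 HFD mouse reached the lower ob/ob mouse.

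Loxl2, which is known for cross-linking collagen IV of basement membranes and for its expression in invasive tumor cells, had the second largest difference. Its rlog value was 6.50, 6.83 and 6.72 in LFD mice, 7.29, 8.44 and 9.33 in HFD mice and 8.17 and 9.52 in ob/ob mice, in the order of the replicates. The 3 lean mice were close together, whereas the HFD mice spread over an SD of 1.02 and the ob/ob mice over 0.96. HFD mice were higher by 1.67 (SE 0.51) and ob/ob mice by 2.16 (SE 0.57). Loxl2 ranked 52 of 15047 genes by the obese difference.

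Loxl3, a close relative of Loxl2, had rlog values of 5.93, 6.30 and 6.35 in LFD mice, 7.31, 7.40 and 7.66 in HFD mice and 6.87 and 9.43 in ob/ob mice. The HFD mice were tightly grouped (7.45 ± 0.18, SD, n = 3), and the ob/ob mice were the most scattered of any gene in the group (8.15 ± 1.81, SD, n = 2). The log2 difference from LFD mice was 1.26 (SE 0.54) in HFD and 1.95 (SE 0.61) in ob/ob mice, the latter 0.67 without ob/ob replicate 2. Both errors rest on a spread shared by all groups, so the scatter of the ob/ob mice enters the HFD error. With only the groups compared in the fit, the SE was 0.22 in HFD and 0.65 in ob/ob mice. Reads of Loxl3 can be shared with Htra2, a gene on the opposite strand that overlaps it by 1297 bases. Opposite-strand genes also overlap Lox (AC161119.1, 1207 bases), Loxl2 (Gm27177, 74219 bases, and Gm37513, 2268 bases) and Plod2 (Gm38391, 647 bases). These genes were not analysed here.

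Loxl1, which is known for keeping elastic fibers in repair, was 6.65, 6.26 and 6.31 in LFD mice, 6.68, 7.69 and 7.93 in HFD mice and 7.55 and 8.19 in ob/ob mice. Its groups were separated by 0.03 alone, since HFD replicate 1 lay at the level of the highest lean mouse. The log2 difference was 1.03 (SE 0.35) in HFD and 1.46 (SE 0.39) in ob/ob mice.

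Both lysyl hydroxylases were higher, by different amounts. Plod2 hydroxylates lysines in the ends of collagen chains, which directs cross-links to a stable form. Its rlog value was 6.55, 6.34 and 6.38 in LFD mice, 6.62, 8.19 and 8.23 in HFD mice and 7.60 and 8.79 in ob/ob mice. HFD replicate 1 was again next to the lean mice, 0.07 above the highest of them. HFD mice were higher by 1.26 (SE 0.46) and ob/ob mice by 1.77 (SE 0.52). Plod1, which acts on lysines in the helical part, was between 8.0 and 8.23 in LFD, between 8.33 and 8.45 in HFD and at 8.32 and 8.87 in ob/ob mice. Its log2 difference was 0.28 (SE 0.19) in HFD and 0.50 (SE 0.21) in ob/ob mice.

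**Figure D2:**
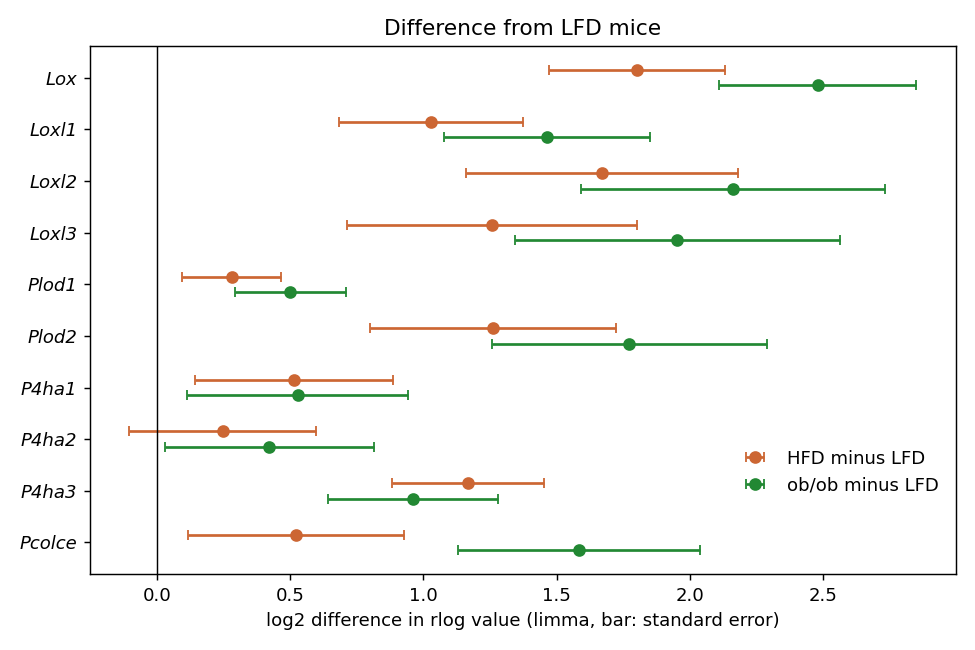
log2 difference in rlog value (x axis) of each of the 10 genes (y axis) between HFD and LFD mice and between ob/ob and LFD mice, from limma, with the standard error as a bar. The standard errors use a spread shared by all groups. Lox and Loxl2 lie furthest from 0 in both obesity models, and P4ha2 in HFD mice is the 1 value whose bar crosses 0.

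The 3 catalytic subunits of prolyl 4-hydroxylase, each of which pairs with the subunit P4hb, differed in pattern. P4ha3 was 3.23, 3.12 and 2.83 in LFD mice, 4.40, 3.81 and 4.48 in HFD mice and 3.88 and 4.17 in ob/ob mice. Lean and obese mice were separated by 0.58, the second widest gap of the 10 genes, and the log2 difference was 1.17 (SE 0.28) in HFD and 0.96 (SE 0.32) in ob/ob mice. P4ha3 was the 1 gene of the 10 with a lower mean in ob/ob than in HFD mice, by a log2 difference of -0.21 (SE 0.32), which is smaller than its error. It was also the 1 gene of the 10 with a mean rlog value under 5, where the transformation shrinks differences most.

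P4ha1, the main catalytic subunit of most cells, was 8.81, 9.09 and 8.69 in LFD mice, 8.80, 9.70 and 9.63 in HFD mice and 8.70 and 10.09 in ob/ob mice. HFD replicate 1 and ob/ob replicate 1 lay among the lean mice, and the other 3 obese mice above them. The log2 differences of 0.52 (SE 0.37) in HFD and 0.53 (SE 0.41) in ob/ob mice were not much larger than their errors. P4ha2 behaved alike, with 7.42, 7.33 and 7.96 in LFD, 7.39, 8.07 and 7.98 in HFD and 7.37 and 8.62 in ob/ob mice. Its differences were 0.25 (SE 0.35) and 0.42 (SE 0.39). Without ob/ob replicate 2, P4ha1 and P4ha2 were lower in the remaining ob/ob mouse than in the mean of LFD mice.

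Pcolce, which speeds the removal of the C-terminal propeptide by Bmp1, was 7.72, 7.83 and 7.21 in LFD mice, 7.77, 8.30 and 8.26 in HFD mice and 8.32 and 10.03 in ob/ob mice. HFD replicate 1 lay between the lean mice, whereas both ob/ob mice were above all others, the lower of them by a small margin. In HFD mice the log2 difference was 0.52, with an SE of 0.41 from all mice and 0.24 from HFD and LFD mice alone. The log2 difference was 1.58 (SE 0.45) in ob/ob and 1.06 (SE 0.45) between ob/ob and HFD mice. This last value was the largest of the 10 genes in that comparison, where the median of the 10 was 0.46 and that of all genes 0.01. Both rested on ob/ob replicate 2, without which the Pcolce difference between ob/ob and HFD mice was 0.21 and the median of the 10 turned to -0.13, with 3 of 10 genes higher. Pcolce overlaps Fbxo24 on the same strand by 1282 bases, and Fbxo24 was not analysed here.

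The genes lie on different chromosomes, with the exception of Loxl1 and Plod2. In Gencode M21 on GRCm38, Loxl1 spans chr9:58287738-58313186 on the minus strand and Plod2 chr9:92542223-92608428 on the plus strand. Loxl2 spans chr14:69609068-69695834 and Loxl3 chr6:83034173-83052562, both on the plus strand. Plod1 spans chr4:147909753-147936767 and Pcolce chr5:137605103-137613784, both on the minus strand. P4ha1 spans chr10:59323296-59373304, P4ha2 chr11:54100095-54131665 and P4ha3 chr7:100285520-100319699, all on the plus strand.

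Promoter sequences are shown for the 3 prolyl 4-hydroxylase subunits, since they are parts of the same enzyme and differed in pattern, P4ha3 being separated between lean and obese mice and P4ha1 and P4ha2 not. The sequences are those of RefSeq on GRCm38.p6, 120 bases that end just before the RefSeq start, 5′ to 3′. None of the 3 windows holds an exon of Gencode M21, and that of P4ha2 lies within the span of a longer transcript of the same gene. Capitals mark the letters ACGTG on either strand, a form of the core of the hypoxia response element. Other forms of the core, such as GCGTG, were neither marked nor counted.
P4ha1, chr10:59323176-59323295, plus strand: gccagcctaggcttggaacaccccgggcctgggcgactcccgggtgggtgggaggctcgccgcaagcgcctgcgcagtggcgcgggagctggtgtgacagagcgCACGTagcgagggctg
P4ha2, chr11:54100804-54100923, plus strand: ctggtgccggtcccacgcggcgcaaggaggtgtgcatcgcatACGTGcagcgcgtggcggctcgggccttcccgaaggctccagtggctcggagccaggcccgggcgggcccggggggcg
P4ha3, chr7:100285400-100285519, plus strand: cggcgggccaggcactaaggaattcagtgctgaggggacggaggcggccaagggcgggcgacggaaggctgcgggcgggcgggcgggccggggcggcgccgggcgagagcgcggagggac
Over the full promoters of 300 bases (250 before and 50 after the start), P4ha1 held 1 match and P4ha2 held 2, whereas P4ha3, Plod1 and Pcolce held 0. The letters occur in 6447 of 32851 promoters (19.6%), and RefSeq promoters were matched for these 5 of the 10 genes. A match describes the letters of the window and is not a site of binding.

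The obese mice differed among each other, and the same mice were high for most of the 10 genes. After each gene was centred on its mean over the 8 mice, LFD mice had a mean over the 10 genes of -0.71 ± 0.09 (SD, n = 3), HFD mice one of 0.26 ± 0.43 (SD, n = 3) and ob/ob mice one of 0.67 ± 0.82 (SD, n = 2). In single mice it was -0.68, -0.64 and -0.81 in LFD, -0.22, 0.39 and 0.62 in HFD and 0.10 and 1.25 in ob/ob mice. Every obese mouse lay above every lean one. ob/ob replicate 2 held the highest value for 9 of the 10 genes, and HFD replicate 3 for P4ha3.

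Counted by mouse, HFD replicates 2 and 3 and ob/ob replicate 2 exceeded all 3 lean mice for 10 of 10 genes, which held for 38.2%, 39.7% and 41.2% of all genes. ob/ob replicate 1 exceeded them for 8 (31.2% of all genes), and HFD replicate 1 for 7 (26.4%). The heat map of differences from the lean mean shows this gradient within the obese groups.

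**Figure D3:**
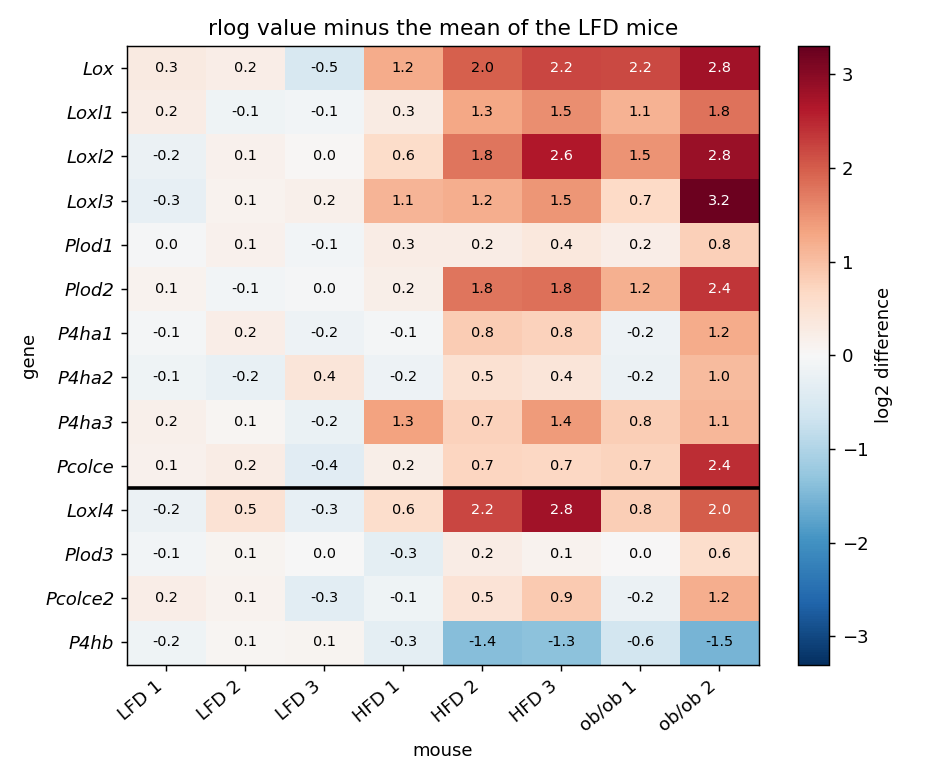
Difference of each rlog value from the mean of the LFD mice (color and number, log2 scale) for the 10 genes (above the line) and 4 relatives (below the line), with 1 column per mouse. HFD replicates 2 and 3 and ob/ob replicate 2 are above the lean mean for all 10 genes, and P4hb is below it in all 5 obese mice.

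Across the 8 mice, the 10 genes varied together to different degrees. Pearson r over the 45 pairs of genes had a median of 0.81, from 0.26 (P4ha2 and P4ha3) to 0.99 (Loxl1 and Plod2). It was over 0.9 in 9 pairs and under 0.5 in 3 pairs, each of which held P4ha1 or P4ha2 and, on the other side, P4ha3 or Lox. The points share the split between lean and obese mice, so these values describe the data and carry no p-value.

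The 4 relatives of the same families that were not among the 10 genes did not form 1 pattern. Loxl4, a lysyl oxidase like Loxl2 and Loxl3, was 4.14, 4.81 and 4.08 in LFD mice, 4.94, 6.55 and 7.11 in HFD mice and 5.16 and 6.35 in ob/ob mice. All 5 obese mice were above the lean ones, which held for 9.4% of all genes, and the gap was 0.12. The log2 difference was 1.86 (SE 0.57) in HFD and 1.41 (SE 0.64) in ob/ob mice. Plod3, which also adds sugars to hydroxylysine, differed by 0.01 (SE 0.21) in HFD and 0.29 (SE 0.24) in ob/ob mice, and Pcolce2, the paralog of Pcolce, by 0.39 (SE 0.41) and 0.50 (SE 0.46). P4hb, protein disulfide isomerase and partner of all 3 P4ha subunits, went the other way. Its rlog value was 14.99, 15.21 and 15.22 in LFD, 14.82, 13.73 and 13.79 in HFD and 14.54 and 13.60 in ob/ob mice. All 5 obese mice were below the lean mice, and the share of all genes for which this held was not counted. The log2 difference was -1.02 (SE 0.42) in HFD and -1.06 (SE 0.47) in ob/ob mice.

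The other steps of collagen and elastin processing were read from 7 lists, and with limma 0 genes of any list passed that threshold in either direction. Of the 8 fibrillar collagen chains, the substrates of these enzymes, 7 were higher in HFD and 7 in ob/ob mice, with medians of 1.43 and 1.95. Col1a1, the main chain of collagen I, had the largest obese difference of the list (2.17, SE 0.40), and Col11a2 was the lower one (-0.38, SE 0.51). Among 8 genes of elastin and its assembly, 7 were higher in each model, with medians of 0.75 and 1.22. Fbn1, the scaffold of elastic fibers, differed by 1.87 (SE 0.46) in obese mice and Fbln5 by -0.05 (SE 0.26). The 5 procollagen proteinases had medians of 0.49 and 1.60, with 4 higher in HFD and 3 in ob/ob mice. Bmp1, which removes the C-propeptide and also activates Lox, differed by 1.50 (SE 0.36) and Adamts3 by -0.27 (SE 0.33).

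Lists of the endoplasmic reticulum and of cofactors were more mixed. Of 11 chaperone, glycosylation and export genes, 6 were higher and 5 lower in each model, with medians of 0.38 and 0.33. Sparc, a collagen-binding protein of the matrix, differed by 1.65 (SE 0.36) in obese mice, and Mia3, which loads procollagen into transport carriers, by -1.01 (SE 0.27). For 4 genes of this list all obese mice were below all lean mice. The share of all genes in that direction was not counted, so nothing is read from this number. For 2 genes all obese mice were above all lean mice, which held for 9.4% of all genes. Of 6 genes of prolyl 3-hydroxylation, 4 were higher and 2 lower in each model, with medians of 0.12 and 0.30. P3h1, the catalytic enzyme, differed by 0.90 (SE 0.32) in obese mice and its complex partner Ppib by -1.14 (SE 0.47). Of 4 genes of copper and ascorbate supply, 3 were higher in each model, with medians of 0.36 and 0.46. Atp7a, the pump that supplies copper to secreted enzymes, differed by 0.65 (SE 0.28), and the copper importer Slc31a1 by -0.42 (SE 0.16).

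Lox, Loxl2, Plod2, P4ha1 and P4ha2 are also known as targets of the hypoxia response, so 13 other genes of that response were read alongside. In HFD mice 9 were higher and 4 lower, and in ob/ob mice 7 were higher and 6 lower, with medians of 0.72 and 0.69. Egln3, an oxygen sensor, differed by 1.57 (SE 0.48) in obese mice, and Pdk1, which limits the entry of pyruvate into mitochondria, by -0.75 (SE 0.29). The plot by list sets these values beside those of the 10 genes.

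**Figure D4:**
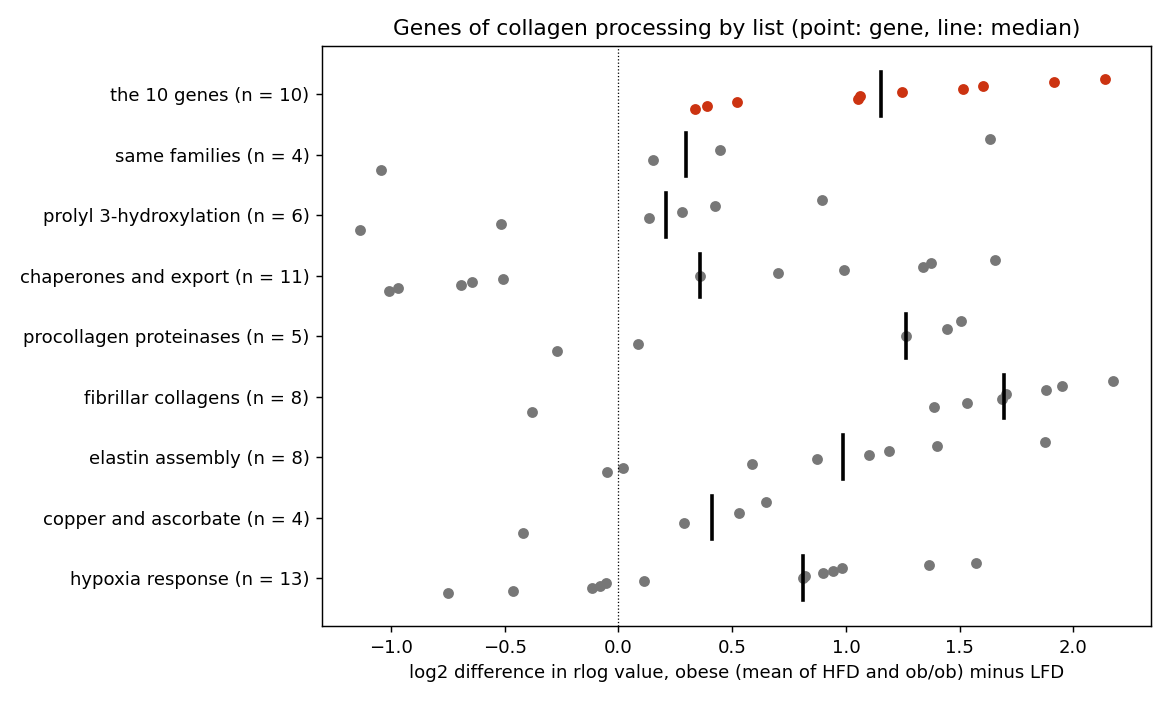
log2 difference in rlog value between obese (mean of HFD and ob/ob) and LFD mice (x axis) for each gene (point) of the 10 genes and of 8 related lists (y axis), with the median as a line. All 10 genes lie above 0, as do 7 of 8 fibrillar collagens, while the lists of chaperones and prolyl 3-hydroxylation lie on both sides.

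Marker genes of several cell types moved with these values. All 18 acinar genes had a lower mean in HFD and in ob/ob mice, and their mean rlog value was 18.0 to 18.4 in LFD, 14.3 to 18.3 in HFD and 14.6 to 17.6 in ob/ob mice. Of 10 fibroblast genes, 8 were higher in HFD and 10 in ob/ob mice, with a mean rlog value of 8.03 to 8.41 in LFD, 8.57 to 9.04 in HFD and 8.91 to 9.55 in ob/ob mice. For 3 of these genes all obese mice were above all lean mice, which held for 9.4% of all genes. The summed linear value of all 10 fibroblast genes was 6776 to 6998 in LFD, 6992 to 8226 in HFD and 7780 to 13487 in ob/ob mice. Of 8 macrophage genes, 7 and 8 were higher, with a mean rlog value of 8.60 to 9.05 in LFD, 9.30 to 10.2 in HFD and 10.2 to 10.8 in ob/ob mice. The median log2 differences of the other lists, in HFD and ob/ob mice, were 0.30 and 0.13 for 8 endothelial genes, 0.73 and -0.10 for 8 ductal genes, and 0.06 and 0.02 for 6 adipocyte genes. They were -0.45 and 1.25 for 8 islet genes and -0.28 and -0.19 for 7 lymphocyte genes. No gene of these lists was at 0 in any mouse. Over the 8 mice, Pearson r with the acinar mean lay between -0.63 (P4ha3) and -0.93 (Loxl2), and r with the fibroblast mean between 0.62 (P4ha2) and 0.96 (Lox), as a description of points that share the same group split.

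With the fibroblast mean as a covariate in limma, the median difference of the 10 genes was 0.13 in HFD and 0.068 in ob/ob mice, with 6 of 10 genes higher in each. In that fit Lox differed by 0.95 and 1.08 and P4ha3 by 1.07 and 0.80, whereas P4ha1 differed by -0.52 and -1.17. With the acinar mean as a covariate the medians were 0.50 and 0.93, and Lox differed by 1.35 and 1.99. The fibroblast mean was itself higher in every obese mouse than in every lean mouse, so the fit with it cannot separate group from makeup. The part of cell makeup in the differences was not tested.

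HFD replicate 1 and ob/ob replicate 1 had acinar shares of 30.4% and 30.7%, within the range of the lean mice. By the mean acinar rlog value, HFD replicate 1 (18.3) was again within the lean range of 18.0 to 18.4, but ob/ob replicate 1 (17.6) lay below every lean mouse. Their fibroblast means of 8.57 and 8.91 were above the lean range. In these 2 mice Lox was 8.0 and 8.94, above the 6.24 to 7.08 of the lean mice, and Loxl2 was 7.29 and 8.17 against 6.50 to 6.83. Loxl3 was 7.31 and 6.87 against 5.93 to 6.35, and P4ha3 was 4.40 and 3.88 against 2.83 to 3.23. Plod1 was 8.35 and 8.32, against 8.23 in the highest lean mouse. Loxl1 and Plod2 in HFD replicate 1 were next to the highest lean mouse, 6.68 against 6.65 and 6.62 against 6.55, and in ob/ob replicate 1 were 7.55 and 7.60. Pcolce in HFD replicate 1 lay within the lean range, and P4ha1 and P4ha2 lay within it in both mice. The plot against the acinar share shows both kinds of gene.

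**Figure D5:**
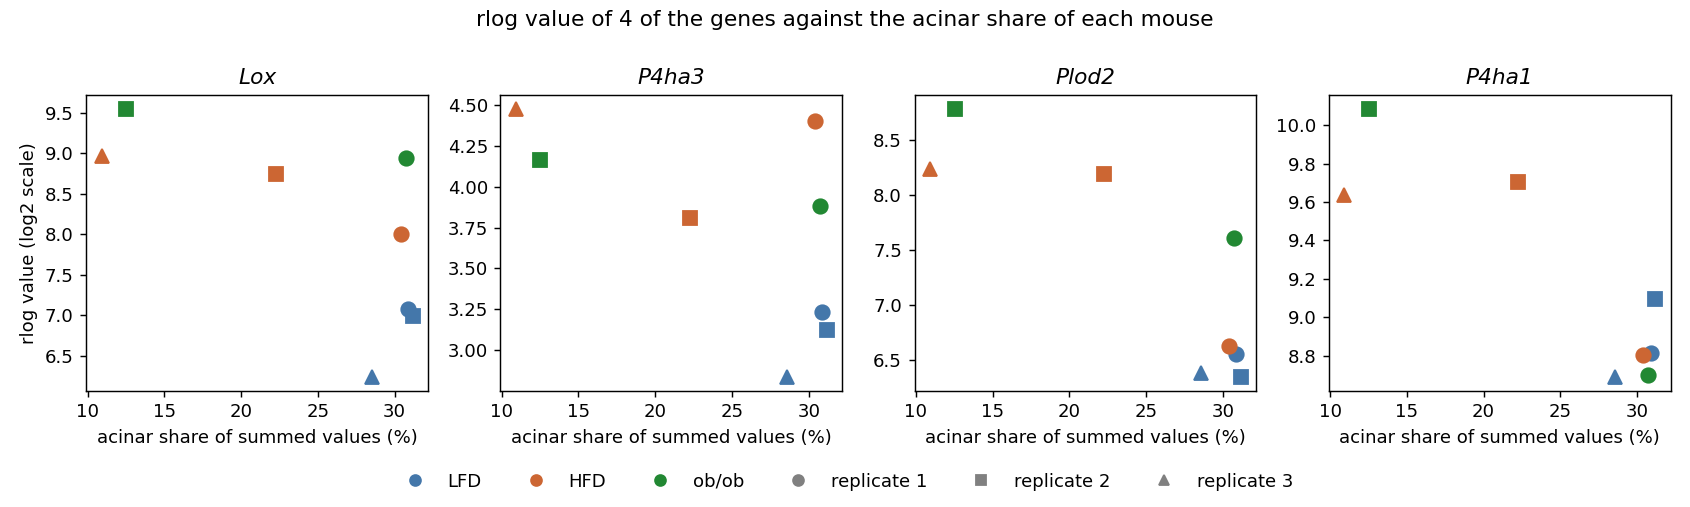
rlog value (log2 scale, y axis) of Lox, P4ha3, Plod2 and P4ha1 against the share of 18 acinar genes in the summed linear values of each mouse (x axis, percent); color is the group and shape the replicate. At acinar shares near 30%, the obese mice lie above the lean mice for Lox and P4ha3 and among them for P4ha1.

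Among all other genes, the ones most like the mean of the 10 over the 8 mice were Stx2 (Pearson r 0.995), Cx3cr1 (0.994), Ifnar1 (0.993), Col8a1 (0.988) and Rab31 (0.988). Stx2 encodes a syntaxin of membrane fusion, Cx3cr1 a chemokine receptor of monocytes and macrophages, Ifnar1 a subunit of the type I interferon receptor, Col8a1 a short-chain collagen and Rab31 a small GTPase of vesicle traffic. For Lox alone they were the ephrin receptor Epha3 (0.997), Dse, an enzyme of dermatan sulfate synthesis (0.991), and the zinc finger gene Zfp217 (0.989). They are the highest values out of nearly 15047 genes compared over 8 mice, and are given as a description.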

How the data were processed

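Total RNA of the pancreas of 8 mice was sequenced by the authors in paired-end libraries on a HiSeq instrument. The submitters' processing notes name FastQC, Salmon 0.11.3, DESeq2 1.22.2 and GRCm38.p6, and the study's methods name Gencode M18 and tximport. The authors deposited rlog values on the log2 scale for 15047 gene symbols. Neither the filter behind these genes nor the blind setting of rlog is given in the sources used here. Salmon shares reads between overlapping or similar transcripts by probability. Counts were not used here, so no test for counts was run and the depth is unknown.

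Mice were grouped by their labels, and replicates are different animals. Differences were computed with limma 3.58.1 in R 4.3.3, on the deposited log2 values, with 1 mean per group, all 8 mice, an empirical Bayes variance with a trend, two-sided tests and Benjamini-Hochberg adjustment over all genes. All groups shared the same estimate of the spread. The step was tested on simulated data with independent noise and the same spread in every group. The spread of these groups differed, so the simulation does not show how the fit behaves on them. Per-mouse values, overlaps, correlations and promoter letters were computed in Python 3.11.15. Shares of summed values used 2 to the power of the rlog value. Coordinates are those of Gencode M21.

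The 10 genes and all lists were chosen with earlier results of these data known. Named genes are the 10 genes, 4 relatives, the gene with the largest obese difference each way in each other list of the pathway, and the genes most like the mean of the 10 (5 genes) or Lox (3 genes). Of the lists, Tll2, Mep1a, Mep1b, Col2a1 and Slc23a1 were not analysed here. Alternatives were a fit without the trend, a fit of the compared groups alone, a minimum of 5 for the mean rlog value, median centring per mouse, quantile normalization, array weights, a block for the replicate number, a covariate for the acinar or the fibroblast mean, and leaving out each mouse in turn.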

Additional observations from a re-analysis of the deposited data

How the results depend on the processing

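The 10 genes had a higher mean in HFD and in ob/ob mice without the trend, with only the groups compared, with median centring, quantile normalization, array weights and the replicate block, as did 9 of 9 at a mean rlog value of at least 5, where P4ha3 was removed. Genes with an adjusted p-value under 0.05 in limma, 0 in each comparison of the report, numbered 1 (HFD against LFD) and 38 (ob/ob against LFD, Lox included) with only the groups compared, and 6656 (HFD, 44.2% of all genes and 8 of the 10) and 4286 (obese, 28.5% and 7 of the 10) with array weights, which gave HFD replicate 2 a weight of 9.36 and HFD replicate 1 a weight of 0.273. The acinar covariate gave 1 gene for ob/ob and 1 for obese against LFD mice, and 1 between the obese models, none of them among the 10. Leaving out 1 mouse gave 0 to 2812 genes (HFD against LFD), 0 to 89 (ob/ob against LFD), 0 to 1 (ob/ob against HFD) and 0 to 3326 (obese), with the highest for HFD, ob/ob and obese against LFD mice without HFD replicate 1. The median difference of the 10 genes became 0.50 (HFD) and 0.93 (ob/ob) with the acinar covariate, and 0.13 (HFD), 0.068 (ob/ob), -0.13 (ob/ob against HFD) and 0.067 (obese) with the fibroblast covariate. It ran from 0.77 without ob/ob replicate 2 to 2.07 without ob/ob replicate 1 in ob/ob against LFD mice, and from -0.13 to 0.89 with the same mice left out in ob/ob against HFD mice. Genes of the 10 with every ob/ob mouse above every HFD mouse numbered 2 with median centring (7.96% of all genes), 2 with quantile normalization (8.14%), and 1 to 9 with 1 mouse left out, the highest without ob/ob replicate 1 (29.4%). Among all genes at an unadjusted p-value under 0.05 between obese and LFD mice, 2186 of 3825 were higher, and 1823 of 3932 after median centring, which moved the median of all genes from 0.04 to -0.05. The cause of these changes was not tested.

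With the replicate block, limma gave 0 genes with an adjusted p-value under 0.05 in each comparison, 3255, 3243, 467 and 4157 genes an unadjusted one, and the medians of the 10 genes were 1.10, 1.55, 0.59 and 1.18. Mice of the same number are different animals, and their deviations from the group means correlated by -0.06, 0.11 and -0.28 between LFD and HFD mice, -0.10 and 0.13 between LFD and ob/ob mice, and 0.59 and 0.30 between HFD and ob/ob mice. The 2 ob/ob mice deviate from their mean by equal amounts in opposite directions, so their values with any other mouse differ in sign alone. HFD replicate 1 was thus at 0.59 with ob/ob replicate 1 and at -0.59 with ob/ob replicate 2. Not every pair was over 0.1, and no label ties the numbers to a batch, so the number was not taken as a pairing. The unknown depth leaves the counting error of low genes such as P4ha3 without a value, and groups of 2 and 3 mice limit every difference.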
